A study of Homo sapiens with 4 samples.

Results

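The transcripts of 10 genes of the NF-kB pathway were followed in the RNA-Seq libraries made from FaDu, a long-established human hypopharyngeal squamous carcinoma line. They were the 5 subunits of the transcription factor (RELA, RELB, REL, NFKB1 and NFKB2), the feedback inhibitors NFKBIA and TNFAIP3, and the target genes TNFAIP2, BIRC3 and LTB. The 10 genes, of 61956 genes in the table, were chosen by symbol and from their measured values in these same libraries, LTB for a hypoxia response that turned round after knockdown, so every value below is a description and none is a test. All 10 were found on a chromosome row, and all 10 had a mean of at least 1 FPKM (fragments per kilobase of exon scaled to the number of mapped fragments).

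Each of the 4 groups had 1 library. Values of all libraries are given in the order N-scr, H-scr, N-si, H-si. N-scr and H-scr came from cells with a scrambled control hairpin in normoxia and in hypoxia, N-si and H-si from cells with a TET1 hairpin (TET1-si) in normoxia and in hypoxia. Hypoxia was 1% oxygen for 19 h, and CO2 was 5% for all 4 libraries. The oxygen level and the duration of the normoxic cultures are not given in the labels. Both hairpins were delivered by lentivirus, in the study's methods from a vector with puromycin resistance, so every library came from infected cells, and the TET1 arm used 1 hairpin. TET1 is a dioxygenase that converts 5-methylcytosine in DNA to 5-hydroxymethylcytosine.

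A single library stood for each group, so nothing below could be checked against replicates, and p-values are left out. Changes are differences of log2(FPKM + 0.1). A gene was called when such a change reached 1, which is 2-fold. Ratios and their exact 95% counting intervals carry no pseudocount. They rest on read numbers rebuilt from depths of 22500000 to 24600000 reads a library, and they cover counting error and not the spread between cultures. In whole cultures, fewer cells that express a gene and less RNA per cell cannot be told apart.

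NF-kB is a family of dimers built from RELA, RELB, REL and the products of NFKB1 and NFKB2. In resting cells the dimers are held in the cytoplasm by IkB proteins, of which IkBα, the product of NFKBIA, is the best known. Signals from TNF, interleukin 1 and Toll-like receptors activate the IKK kinases, IkBα is degraded, and the freed dimers enter the nucleus and bind kappaB sites. Among the genes they switch on are NFKBIA itself and TNFAIP3, whose product A20 edits ubiquitin chains upstream of IKK, so both close negative feedback loops. In squamous carcinoma the pathway is known for its control of cytokine and survival genes.

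The kappaB sites in front of the genes are shown first, since a kappaB site is how the factor recognises a target. In the 250 bp before the start of the canonical transcript (GENCODE annotation on hg19), 8 of the 10 genes held a match to the kappaB consensus on either strand, compared with 5.87% of the windows of 19862 protein-coding genes. RELA and TNFAIP2 held none. The 11 sites below are 30 bases each, on the strand of the gene, with the letters that match in capitals, and pairs of matches that overlap or lie close together share a line.
NFKB1 chr4:103422457-103422486 (+): cgacgtcagtGGGAATTTCCagccaggaag
NFKB2 chr10:104155276-104155305 (+): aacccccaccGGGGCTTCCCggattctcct
NFKB2 chr10:104155431-104155460 (+): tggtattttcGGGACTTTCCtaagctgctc
RELB chr19:45504581-45504610 (+): gtgacgcgtgGGGGTTTTCCcgttccccag
RELB chr19:45504653-45504682 (+): cggcggcgccGGGGAATTCCgccgccccgc
REL chr2:61108653-61108682 (+): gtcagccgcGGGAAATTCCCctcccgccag
NFKBIA chr14:35874017-35874046 (-): tgactggcttGGAAATTCCCcgagcctgac
TNFAIP3 chr6:138188325-138188354 (+): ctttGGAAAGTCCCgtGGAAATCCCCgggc
BIRC3 chr11:102188006-102188035 (+): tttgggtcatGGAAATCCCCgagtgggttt
BIRC3 chr11:102188070-102188099 (+): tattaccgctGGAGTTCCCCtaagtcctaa
LTB chr6:31550269-31550298 (-): aggggtgtgcGGAAAGTCCCagccaggtgt

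The LTB match and the first TNFAIP3 match were the same 10 letters, and the second TNFAIP3 match was shared with BIRC3. In LTB the match lay 87 to 78 bases before the start, in TNFAIP3 67 to 58 and 55 to 46 bases before it, and in NFKBIA 81 to 72. The 5-letter core of the hypoxia response element, ACGTG or GCGTG on either strand, was found in 6 of the 10 windows and in 51.5% of all windows. LTB, NFKBIA, NFKB2 and TNFAIP2 held no such core. The LTB window had 2 CpG dinucleotides, the lowest of the 10, RELA had 42, and the median over all windows was 18. These are matches of letters, and no binding was measured here. Of the 11 sites, 6 overlap the span that the table gives for the gene, which can start upstream of the canonical transcript.

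The levels ran from 0.446 to 1013 FPKM, and LTB and TNFAIP3 had the widest ranges across the 4 libraries. TNFAIP2, first described as a gene induced by TNF, was the highest of the 10 in every library, RELA was the highest subunit in every library, and REL was the lowest of the 10 in both scrambled libraries. LTB was 7th of 10 in both scrambled libraries and 10th in both TET1-si libraries. TNFAIP3 was 4th in both scrambled libraries, 6th in N-si and 7th in H-si. Neighbours in the order that lay close together were RELB and BIRC3, at 6.27 and 6.20 FPKM in N-scr and 11.4 and 12.1 FPKM in H-scr, and NFKBIA and RELA, which changed places between N-scr and H-scr.

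**Figure D1:**
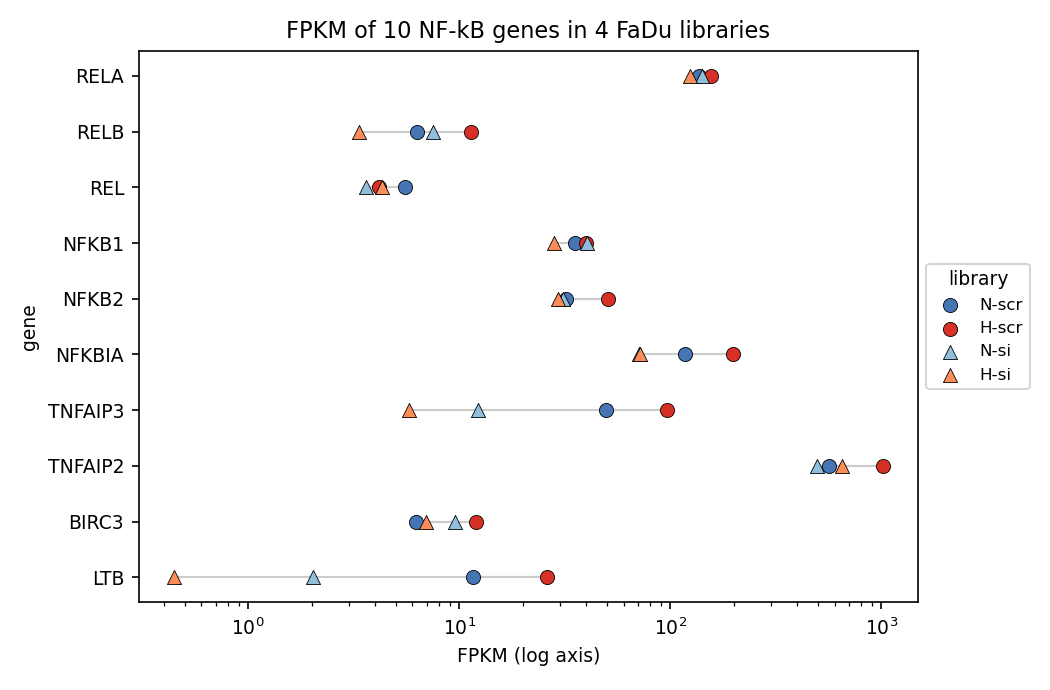
FPKM of the 10 genes (log axis) in each of the 4 libraries; each point is 1 library, circles are scrambled cells, triangles are TET1-si cells, and a grey line joins the 4 values of a gene. LTB runs from 0.446 FPKM in H-si to 26.0 in H-scr and TNFAIP3 from 5.76 to 96.7, while RELA stays between 124 and 155.

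RELA (hg19 chr11:65421067-65430565, minus strand, 11 exons) encodes p65, the subunit with the main transactivation domain of the canonical dimer. Its level was 136 FPKM (N-scr), 155 (H-scr), 141 (N-si) and 124 (H-si). The 4 values lay within 1.25-fold of each other, with H-scr highest and H-si lowest. Hypoxia went with a log2 change of 0.19 for scrambled and of -0.18 for TET1-si cells.

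NFKB1 (chr4:103422486-103538459, plus strand, 24 exons) encodes p105, which is processed to p50, the usual partner of p65. It was measured at 35.2 FPKM (N-scr), 39.6 (H-scr), 40.1 (N-si) and 28.0 (H-si), again with H-si lowest. The TET1-si response was 0.19 under normoxia and -0.50 under hypoxia, a ratio of H-scr to H-si of 1.42. NFKB2 (chr10:104153867-104162281, plus strand, 23 exons) encodes p100, the precursor of p52 in the non-canonical arm and itself a target of NF-kB. It stood at 31.9 FPKM (N-scr), 50.8 (H-scr), 30.8 (N-si) and 29.4 (H-si). H-scr alone stood out, 1.59-fold above N-scr, and the other 3 libraries lay between 29.4 and 31.9. The level of NFKB1 was that of NFKB2 multiplied by 1.10 (N-scr), 0.781 (H-scr), 1.30 (N-si) and 0.952 (H-si).

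RELB (chr19:45504688-45541452, plus strand, 12 exons), the partner of p52 and an NF-kB target itself, had the widest range of the subunits. It was 6.27 FPKM (N-scr), 11.4 (H-scr), 7.48 (N-si) and 3.35 (H-si), from about 295, 572, 376 and 154 reads. H-scr was the highest and H-si the lowest, and both normoxic libraries lay between them. Scrambled cells responded to hypoxia by 0.85 and TET1-si cells by -1.14, and under hypoxia scrambled cells held 3.41 times the level of TET1-si cells. The ratio of RELA to RELB was 21.7 (N-scr), 13.6 (H-scr), 18.9 (N-si) and 37.1 (H-si).

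REL (chr2:61108656-61150645, plus strand, 10 exons) encodes c-Rel, a subunit best known from lymphocytes. Its level was 5.51 FPKM (N-scr), 4.18 (H-scr), 3.60 (N-si) and 4.28 (H-si). It was the only member that was lower in H-scr than in N-scr, with a change of -0.39, and in TET1-si cells the change was 0.24. The TET1-si response was -0.60 under normoxia and 0.03 under hypoxia, and the latter sign turned with the scaling of the columns, to -0.09 with median-of-ratios and -0.02 with upper-quartile scaling.

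NFKBIA (chr14:35870717-35873955, minus strand, 6 exons) was measured at 117 FPKM (N-scr), 197 (H-scr), 71.3 (N-si) and 71.7 (H-si). Both TET1-si libraries lay below both scrambled ones. Hypoxia went with a 1.68-fold higher level in scrambled cells, with a counting interval of the log2 ratio of 0.69 to 0.81, and in TET1-si cells the log2 ratio was 0.01, with an interval of -0.08 to 0.09. Under hypoxia the level in scrambled cells was 2.75-fold that in TET1-si cells, and under normoxia 1.65-fold. Set against its client subunit, NFKBIA stood at 0.863 (N-scr), 1.27 (H-scr), 0.505 (N-si) and 0.576 (H-si) times RELA.

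TNFAIP3 (chr6:138188351-138204449, plus strand, 9 exons) was measured at 49.7 FPKM (N-scr), 96.7 (H-scr), 12.2 (N-si) and 5.76 (H-si), from about 5087, 10543, 1339 and 576 reads. Both TET1-si libraries lay below both scrambled ones, and hypoxia went with opposite changes, 0.96 for scrambled and -1.07 for TET1-si cells. The level in scrambled cells was 4.06-fold that in TET1-si cells under normoxia and 16.8-fold under hypoxia. The change under hypoxia, -4.05, was the 146th lowest of the 15057 genes with a mean of at least 1 FPKM. The ratio of TNFAIP3 to RELA was 0.365 (N-scr), 0.623 (H-scr), 0.0865 (N-si) and 0.0463 (H-si). An antisense gene, RP11-356I2.4, overlaps TNFAIP3, and nothing in the sources used says that the libraries kept the strand, so reads of the pair cannot be told apart. It was at 0.871, 1.16, 0.109 and 0.347 FPKM in N-scr, H-scr, N-si and H-si.

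BIRC3 (chr11:102188215-102210134, plus strand, 9 exons) encodes cIAP2, a ubiquitin ligase at TNF receptors that limits cell death. Its level was 6.20 FPKM (N-scr), 12.1 (H-scr), 9.52 (N-si) and 6.96 (H-si). The order was unlike that of NFKBIA and TNFAIP3, since N-si lay above N-scr, by 0.61, while H-si lay below H-scr, by 0.79 on the log2 scale. Scrambled cells responded to hypoxia by 0.95 and TET1-si cells by -0.45. TNFAIP2 (chr14:103589779-103603776, plus strand, 12 exons) was at 563 FPKM (N-scr), 1013 (H-scr), 495 (N-si) and 648 (H-si). Hypoxic cells held more of it with either hairpin, by 0.85 in scrambled and 0.39 in TET1-si cells, and lower in TET1-si cells in both oxygen states, with changes of -0.64 under hypoxia and -0.18 under normoxia.

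LTB (chr6:31548302-31550299, minus strand, 4 exons) encodes lymphotoxin beta, a membrane ligand of the TNF family that drives the non-canonical arm through its receptor. Its level was 11.6 FPKM (N-scr), 26.0 (H-scr), 2.03 (N-si) and 0.446 (H-si), from about 181, 433, 34 and 7 reads. Hypoxia went with a 2.25-fold higher level in scrambled cells, a log2 ratio of 1.17 with a counting interval of 0.91 to 1.43, and with a 4.56-fold lower level in TET1-si cells, a log2 ratio of -2.19 with an interval of -3.57 to -0.96. Under hypoxia the level in scrambled cells was 58.4-fold that in TET1-si cells, and the interval of the log2 ratio of H-si to H-scr, -7.15 to -4.77, shows how little the 7 reads fix its size. On the log2(FPKM + 0.1) scale this change, -5.58, was the 91st lowest of 15057 genes and the largest among the 10 members. The table also lists LTB on 7 alternative haplotypes of the MHC region, all at 0 in the 4 libraries. LTBR, the receptor of lymphotoxin beta and part of the receptor list (named here after its values were seen), stood at 146 FPKM (N-scr), 143 (H-scr), 181 (N-si) and 202 (H-si).

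**Figure D2:**
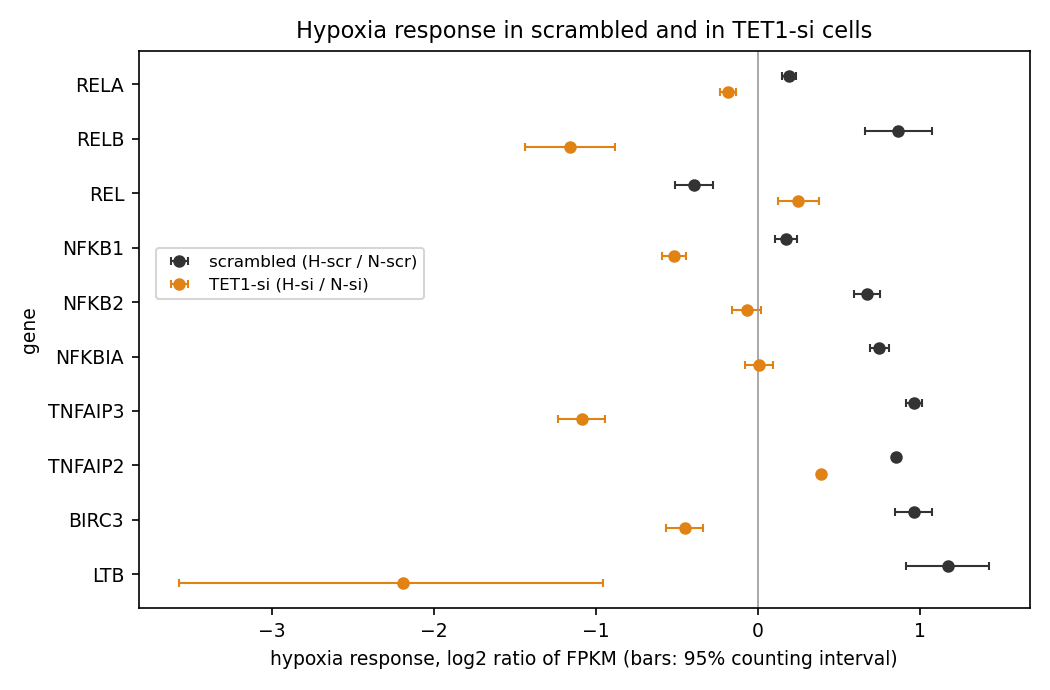
Hypoxia response of the 10 genes as the log2 ratio of FPKM for scrambled cells (black, H-scr to N-scr) and for TET1-si cells (orange, H-si to N-si), 1 library a group; bars are 95% counting intervals, which do not cover the spread between cultures. For 7 genes the intervals lie on opposite sides of 0, and TNFAIP2 is the only one above 0 in both. The share of all genes with intervals on opposite sides of 0 was not counted.

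The counts of called genes are given against the share of all 15057 genes with a mean of at least 1 FPKM. Since the members were chosen from these comparisons, nothing is read from them. For hypoxia in scrambled cells, 1 of the 10 (LTB) was called higher, against 12.9% of all genes, and 0 lower, against 4.53%. TNFAIP3, BIRC3, RELB and TNFAIP2 lay just short of the limit, between 0.85 and 0.96. For hypoxia in TET1-si cells, 0 were called higher, against 12.5%, and 3 lower (LTB, RELB and TNFAIP3), against 8.66%. For the TET1-si response under hypoxia, 4 were called lower (LTB, TNFAIP3, RELB and NFKBIA), against 8.35%, and 0 higher, against 12.0%. Under normoxia, 2 were called lower (LTB and TNFAIP3), against 5.56%, and 0 higher, against 12.1%. The study's RNA-Seq criteria ask that H-scr exceed 2 times H-si, that H-scr exceed N-scr, and that N-scr be at least N-si. All 3 of these held for LTB, NFKBIA and TNFAIP3, 3 of the 10, and for 3.84% of all genes tested.

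The hypoxia response of scrambled cells was subtracted from that of TET1-si cells. It was below 0 for 9 of the 10 members, with a median of -0.74, and above 0 for REL, at 0.63. Over all genes the median was -0.06 and 55.4% lay below 0. It was -3.13 for LTB, with a counting interval of the difference without pseudocount of -4.57 to -2.15, -2.03 for TNFAIP3, -1.99 for RELB and -1.39 for BIRC3, the 4 members called lower, against 7.86% of all genes. It was -0.74 for NFKBIA, -0.74 for NFKB2, -0.69 for NFKB1, -0.46 for TNFAIP2 and -0.37 for RELA. No member was called higher, against 4.87%. The LTB value was the 187th lowest of 15057. This difference and the 4 responses share libraries, so they are not separate evidence.

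TET1 itself was low in all libraries, at 0.129 FPKM (N-scr), 0.331 (H-scr), 0.0493 (N-si) and 0.122 (H-si), from about 28, 76, 11 and 26 reads. The ratio of scrambled to TET1-si cells was 2.63 under normoxia and 2.71 under hypoxia, and the log2 ratio of TET1-si to scrambled cells had counting intervals of -2.60 to -0.39 and -2.13 to -0.77. H-si thus held about as much TET1 as N-scr. The hairpin target is shown because the knockdown rests on it.
TET1 hairpin target, chr10:70451833-70451853 (+): ccttgatagaatcactcagtt
It lies in exon 12 of 12 of TET1, after the stop codon, and among the annotated transcripts TET1 was the only gene with an exact match to all 21 bases. Shorter or partial matches were not searched for, so effects of the hairpin on other transcripts were not tested.

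The other genes of the pathway were read from 6 lists by role, 87 genes in all, of which 67 had a mean of at least 1 FPKM and a gene ID on a single row. Their median change was 0.47 for hypoxia in scrambled cells, 0.08 for hypoxia in TET1-si cells, -0.31 for TET1-si under hypoxia, -0.07 for TET1-si under normoxia and -0.38 for the difference of hypoxia responses. Over all genes tested the same medians were 0.05, 0.03, 0.10, 0.15 and -0.06. For hypoxia in scrambled cells 11 of the 67 were called higher, against 12.9% of all genes, and 0 lower, against 4.53%. For hypoxia in TET1-si cells 4 were called higher, against 12.5%, and 2 lower, against 8.66%. For TET1-si under hypoxia 19 were called lower, against 8.35%, and 1 higher, against 12.0%, and under normoxia 14 were lower, against 5.56%, and 2 higher, against 12.1%. For the difference of hypoxia responses 11 were called lower, against 7.86%, and 0 higher, against 4.87%. Of the 67 genes, 50, which is 74.6%, lay below 0, against 55.4% of all genes. The lists were chosen with earlier results of these data known, so nothing is read from these counts. Some list genes, such as CD40 and CXCL3, reached a mean of 1 FPKM only through the scrambled libraries.

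**Figure D3:**
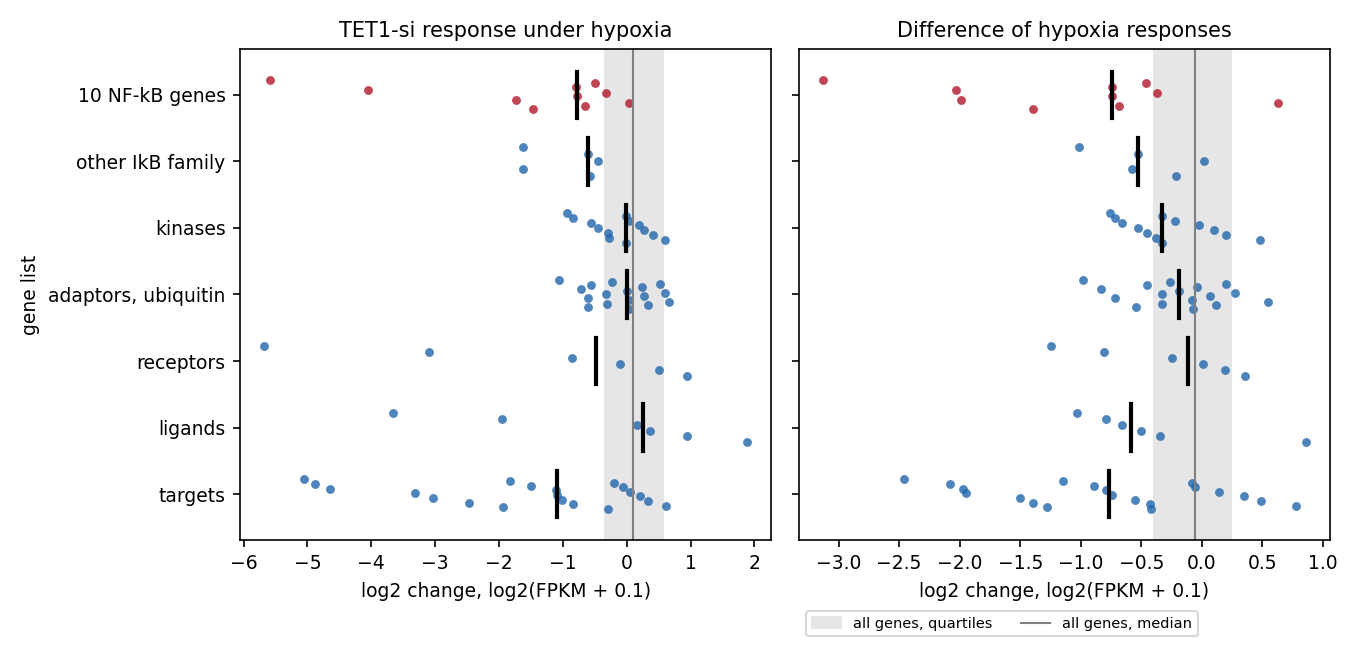
Log2 change on the log2(FPKM + 0.1) scale of each tested gene, by list: the TET1-si response under hypoxia (left) and the difference of hypoxia responses (right). Each point is 1 gene, black bars are list medians, the grey band runs from the lower to the upper quartile of all 15057 genes and the grey line their median; the targets list has its median at -1.09 on the left and -0.77 on the right, the kinases list at -0.01 and -0.33.

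The other members of the IkB family behaved in part like NFKBIA. NFKBIZ, which encodes a nuclear IkB that takes part in the induction of secondary NF-kB targets, was at 16.9 FPKM (N-scr), 34.6 (H-scr), 7.84 (N-si) and 11.2 (H-si). NFKBID, another nuclear IkB, was at 8.24, 19.3, 5.38 and 6.22 FPKM in the same order. These 2 of 5 were called higher in hypoxia in scrambled cells, against 12.9% of all genes. Both were also called lower in TET1-si cells under hypoxia, against 8.35%. NFKBIZ was also called lower under normoxia, and NFKBID lower for the difference of hypoxia responses, at -1.01. NFKBIE, a cytoplasmic IkB, was at 8.12, 11.2, 8.86 and 8.13 FPKM, with a difference of -0.58. NFKBIB and BCL3 are named here after their values were seen. NFKBIB was at 17.1, 11.1, 13.1 and 7.28 FPKM, with a hypoxia response of -0.62 in scrambled cells. BCL3 was at 21.9, 23.2, 14.5 and 15.6 FPKM, with a response of 0.08 there. All 5 lay below 0 in the TET1-si response under hypoxia, with a median of -0.60. Of all genes tested 42.9% lay below 0 there, with a median of 0.10. With 5 genes, nothing is read from this for the family.

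Of the 13 kinases none was called for hypoxia in scrambled cells, against 12.9% of all genes higher and 4.53% lower. None was called for TET1-si under hypoxia, against 12.0% higher and 8.35% lower. Nor was any called for the difference of responses, against 4.87% higher and 7.86% lower. IKBKB, the catalytic IKK subunit of the canonical arm, was at 119.5 FPKM (N-scr), 226.7 (H-scr), 47.8 (N-si) and 126.3 (H-si). It was called lower in TET1-si cells under normoxia, at -1.32, and higher in hypoxia in TET1-si cells, at 1.40, so its hypoxia response kept its sign. IKBKE, an IKK-related kinase, was at 6.95, 13.1, 6.14 and 6.82 FPKM, with a difference of responses of -0.76, the lowest of the 13 kinases. TAB1, an activator of the TAK1 kinase, and IRAK4, the kinase next to interleukin 1 and Toll-like receptors, had differences of -0.72 and -0.66.

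Of 17 adaptors and ubiquitin regulators tested, 2 were called higher in hypoxia in scrambled cells, against 12.9% of all genes, which is about the same share. MYD88, the adaptor of interleukin 1 and Toll-like receptors, was at 19.1 FPKM (N-scr), 49.0 (H-scr), 18.2 (N-si) and 23.6 (H-si). It was the 1 gene of this list called lower in TET1-si cells under hypoxia, against 8.35% of all genes. TNIP1, which encodes an A20-binding inhibitor of NF-kB, was at 37.8, 91.3, 44.3 and 60.1 FPKM. Both were higher in H-scr than in the other 3 libraries. TNIP2, a second A20-binding protein, had a hypoxia response of 0.69 with the scrambled and of -0.03 with the TET1 hairpin, and NLRC5, a regulator of MHC class I genes, was lower in TET1-si cells under normoxia, at -0.84, and under hypoxia, at -0.72.

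Of the 12 receptors 6 were tested. CD40, a receptor of the TNF family, was at 2.67 FPKM (N-scr), 5.01 (H-scr) and 0.0289 (N-si), and was listed at 0 in H-si, from about 90, 180, 1 and 0 reads, so its change of -5.67 under hypoxia depends on the pseudocount. TNFRSF9, also of this family, was at 1.32, 2.54, 0.190 and 0.208 FPKM. Both were called lower in TET1-si cells in both oxygen states, and none of the 6 tested was called higher. Among all genes 8.35% were called lower and 12.0% higher under hypoxia, and 5.56% lower and 12.1% higher under normoxia. CD40 and TNFRSF9 reached the mean of 1 FPKM only through the scrambled libraries. TLR3, a sensor of double-stranded RNA, went the other way, at 3.78 FPKM (N-scr), 6.03 (H-scr), 5.74 (N-si) and 11.7 (H-si). Below the limit of 1 FPKM, TNFRSF11A was higher and IL1R1 lower in TET1-si cells in both oxygen states, both named here after their values were seen. TNFRSF11A was at 0.280 FPKM (N-scr), 0.433 (H-scr), 1.04 (N-si) and 0.989 (H-si), and IL1R1 at 0.527, 0.970, 0.134 and 0.133 FPKM.

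Of the 12 ligands 6 were tested. IL1B, which encodes interleukin 1 beta, was at 14.5 FPKM (N-scr), 25.2 (H-scr), 2.26 (N-si) and 1.89 (H-si). IL1A, which encodes interleukin 1 alpha, was at 13.7, 21.5, 5.54 and 5.48 FPKM. These 2 were called lower in TET1-si cells in both oxygen states, by 3.92-fold to 13.3-fold under hypoxia. Among all genes 8.35% were called lower and 12.0% higher under hypoxia, and 5.56% lower and 12.1% higher under normoxia. TNFSF10, which encodes the death ligand TRAIL, was at 15.3, 26.7, 16.2 and 51.3 FPKM and had the highest difference of responses among the 67 list genes tested, 0.86. TNFSF15, a ligand of the TNF family, was at 0.521, 1.37, 1.10 and 1.55 FPKM. TNFSF12, the gene for TWEAK, named here after its values were seen as the 1 ligand called higher in TET1-si cells under hypoxia, was at 1.01, 2.26, 5.68 and 8.63 FPKM. TNF and LTA, the neighbours of LTB in the MHC region, were below the limit of 1 FPKM. TNF stood at 0.208, 0.667, 0.0278 and 0.0303 FPKM, from about 7, 24, 1 and 1 reads, and LTA never passed 0.140 FPKM.

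Of 27 other targets 20 were tested, with a median of 0.57 for hypoxia in scrambled cells, -0.12 for hypoxia in TET1-si cells and -1.09 for TET1-si under hypoxia. Under hypoxia 12 of the 20 were called lower in TET1-si cells, against 8.35% of all genes, and 0 higher, against 12.0%. Under normoxia 8 were called lower, against 5.56%, and 1 higher, against 12.1%. The list was chosen with earlier results of these data known, so nothing is read from these counts. CXCL2, CXCL3, CCL20 and PTGS2, all called lower under hypoxia, reached the mean of 1 FPKM only through the scrambled libraries. IL8, a chemokine for neutrophils, was at 17.0 FPKM (N-scr), 41.8 (H-scr), 2.74 (N-si) and 1.17 (H-si), 35.8-fold lower in H-si than in H-scr. CXCL1, a chemokine of the same class, was at 27.4, 54.2, 2.35 and 1.74 FPKM, and CCL20, which attracts cells with CCR6, was at 1.90, 8.40, 0.694 and 0.757 FPKM. The CXCL genes are close paralogs, and reads may have been split among them. IL6, the gene for interleukin 6, did not follow this order. It stood at 3.51 FPKM (N-scr), 6.83 (H-scr), 7.01 (N-si) and 3.13 (H-si), so that, as for BIRC3 and RELB, TET1-si cells lay above scrambled cells under normoxia and below them under hypoxia.

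The pattern of LTB was compared with that of every tested gene by the distance between the 4 log2 values, each gene centred on its mean. The 5 nearest genes were IL8, at a distance of 0.61, FHL1, at 0.75, CXCL3, at 0.85, CXCL11, at 0.90, and SH2D5, at 0.95. FHL1 was at 5.10 FPKM (N-scr), 6.09 (H-scr), 0.612 (N-si) and 0.142 (H-si), CXCL11 at 1.16, 3.24, 0.292 and 0.0319 FPKM. CXCL3 was at 2.45, 3.69, 0.189 and 0.0515 FPKM, and SH2D5 at 1.79, 2.81, 0.223 and 0.0516 FPKM. In H-si these 4 genes had about 7, 1, 1 and 4 reads, for FHL1, CXCL11, CXCL3 and SH2D5, so their likeness to LTB rests on 4 values of which 1 is nearly empty. These 4 genes also reached the mean of 1 FPKM only through the scrambled libraries. LTB was chosen from the same values, so nothing is read from the likeness.

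The 50 nearest tested genes on the chromosome, 25 on each side, were set beside each member. Around LTB the median of their TET1-si responses came to -0.16 under hypoxia and 0.02 under normoxia, against -5.58 and -2.45 for LTB. Around TNFAIP3 it was 0.05 and 0.01, against -4.05 and -2.01, and around NFKBIA -0.11 and -0.21, against -1.46 and -0.72. Around RELB it was 0.47 and 0.51, around BIRC3 0.66 and 0.71, and around TNFAIP2 -0.52 and -0.41. The change of TNFAIP2, -0.64 and -0.18, and the change of BIRC3 under normoxia, 0.61, thus lay close to those of the genes beside them, and whether this has a part in their values was not tested.

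**Figure D4:**
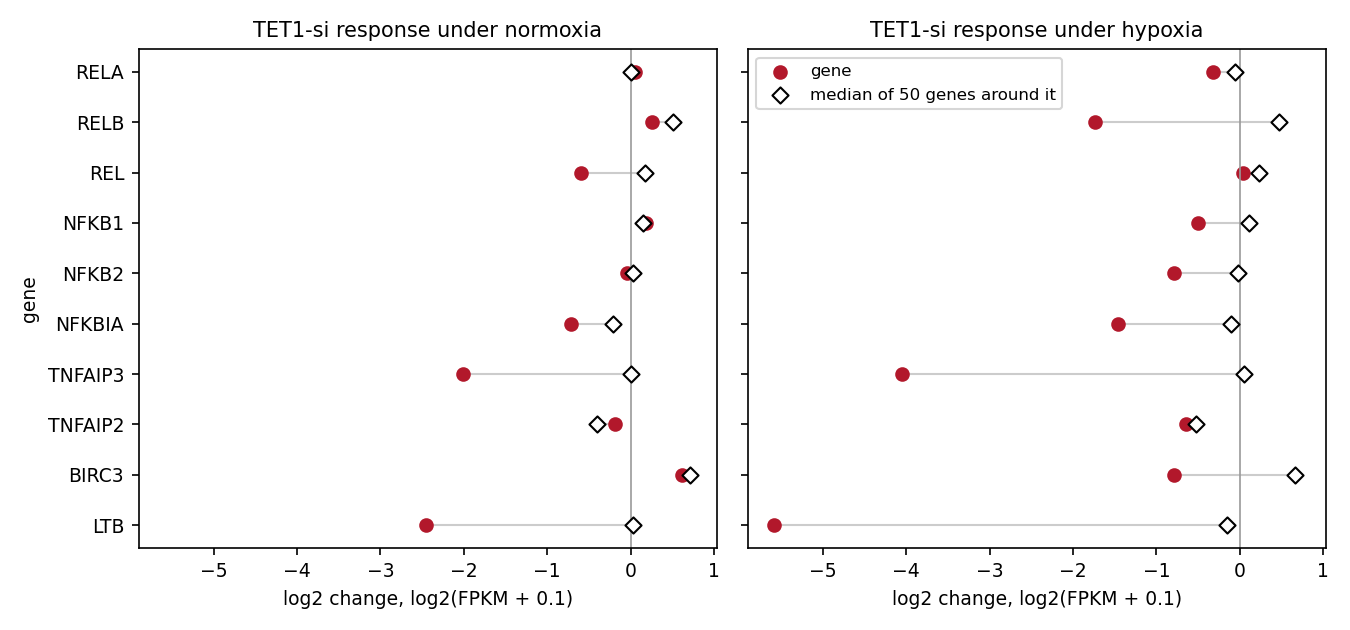
TET1-si response of each gene (red) and the median over the 50 tested genes nearest to it on the chromosome (open diamonds), under normoxia (left) and hypoxia (right), on the log2(FPKM + 0.1) scale. LTB lies at -2.45 and -5.58 with its neighbours at 0.02 and -0.16, whereas BIRC3 lies at 0.61 under normoxia with its neighbours at 0.71.

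The line was checked by its markers. All 9 epithelial markers, not all of them particular to squamous cells, had a mean of at least 1 FPKM. Their summed level was 7518 FPKM (N-scr), 10264 (H-scr), 2589 (N-si) and 4511 (H-si). The keratins KRT5, KRT8 and KRT18 were lower in both TET1-si libraries than in both scrambled ones, as were KRT14 and KRT6A. KRT14 was at 42.1 FPKM (N-scr), 99.9 (H-scr), 0.487 (N-si) and 1.41 (H-si). KRT6A was at 67.7, 109, 0.394 and 0.357 FPKM and reached the mean of 1 FPKM only through the scrambled libraries. The other 4 markers were not lower in both TET1-si libraries than in both scrambled ones. KRT17 was at 1503, 2741, 764 and 1783 FPKM and TP63 at 50.7, 54.8, 42.1 and 53.4 FPKM. CDH1, at 179, 292, 267 and 399 FPKM, and EPCAM, at 154.5, 101.6, 205.9 and 163.4 FPKM, were higher in TET1-si than in scrambled cells in both oxygen states. The part of these markers in the values of the NF-kB genes was not tested. Of 9 leukocyte markers, CD14 and CD68 reached a mean of 1 FPKM, CD3E, CD2 and MS4A1 were listed at 0 in all libraries, and the common leukocyte antigen PTPRC was at 0 in 3 libraries and at 0.0101 in H-si. Their summed level was 21.8 to 22.9 FPKM in scrambled and 29.8 to 30.3 FPKM in TET1-si cells. Of 5 fibroblast markers COL1A1 alone reached a mean of 1 FPKM, and LUM and COL1A2 were at 0. Their summed level, nearly all of it COL1A1, was 5.30, 28.6, 14.1 and 37.2 FPKM, and its part in the values of the NF-kB genes was not tested. Of 3 endothelial markers with a row CDH5 and VWF reached it, and their summed level ran from 8.93 FPKM in N-scr to 48.4 in H-si.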

How the data were processed

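Total RNA of 4 FaDu cultures, 1 for each group, was sequenced by the authors as TruSeq mRNA libraries on a HiSeq 2000 and processed with TopHat and Cufflinks on hg19 with Ensembl annotations, whose versions are not given in the sources used here. The labels call the reads single-end and the study's methods paired-end. The deposited values are FPKM per gene, 62077 rows with 1 column a library. Starts counted from 0 in the table were printed from 1. The 10 genes, the gene lists and the contrasts were chosen with earlier results of these data known.

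Changes were taken as log2(FPKM + 0.1) for H-scr against N-scr, H-si against N-si, H-si against H-scr and N-si against N-scr, with genes at a mean of at least 1 FPKM (15057 genes), and 111 gene IDs on 232 rows were left out of the set tested. The named genes were the 10 members, from each list the 3 with the largest difference of responses and the 2 with the largest TET1-si response under hypoxia, TET1, TNF, LTA and the 5 genes nearest to LTB. Depth was searched for the value that makes low FPKM of 3701 single-exon genes whole read numbers, and 96.8% to 97.9% came out whole within 0.05. Reads are FPKM times depth times the canonical transcript length less 214 bp. Single ratios have exact (Clopper-Pearson) intervals, the difference of responses an approximate one from its 4 read numbers. The intervals cover counting error only. The calls and the depth search were tested on simulated data. Sequences were read from the hg19 genome with GENCODE v44lift37. The alternatives were 2 other pseudocounts, 3 scalings, a 1.5-fold limit, no minimum level and a minimum of 5 FPKM. Python 3.11.15, numpy 2.4.6, scipy 1.17.1, pandas 2.3.3 and matplotlib 3.10.9 were used. The 5hmC data of the series were not used here.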

Additional observations from a re-analysis of the deposited data

Results flagged for a closer look

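For 7 of the 10 genes the counting intervals of the hypoxia response lay on opposite sides of 0 in scrambled and in TET1-si cells. The share of all genes with such intervals was not counted, so nothing is read from this number. The intervals are narrow where reads are many, and they do not cover the choice of scaling. For RELA in TET1-si cells the change ran from -0.190 to -0.047 across pseudocounts and scalings. The difference of responses on the log2(FPKM + 0.1) scale was -3.13 for LTB, -2.03 for TNFAIP3, -1.99 for RELB, -1.39 for BIRC3, -0.69 for NFKB1 and -0.37 for RELA, where the response was above 0 in scrambled cells and below 0 in TET1-si cells. For REL it was 0.63, with the signs the other way round. Each arm rested on 1 library in each oxygen state, so these differences were not tested against the spread between cultures.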

How the results depend on the processing

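No replicate could be left out, and no paired analysis was possible because each group had 1 library. Counts of called genes are given below only where they moved by more than 1.5-fold from those above, or to or from 0. Each count was taken in a fixed direction and could not turn. With a pseudocount of 1, members lower for hypoxia in TET1-si cells went from 3 to 1, and list genes to 7 higher for hypoxia in scrambled cells, 0 lower for hypoxia in TET1-si cells, 1 higher for TET1-si under normoxia and 6 lower for the difference of responses. With a pseudocount of 0.01, list genes lower for hypoxia in TET1-si cells went from 2 to 4. Median-of-ratios and upper-quartile scaling each left 1 list gene higher for TET1-si under normoxia. Members higher for hypoxia in scrambled cells went from 1 to 2 with upper-quartile scaling and to 3 as TPM, and as TPM the list genes went from 11 to 20 there, to 3 higher for TET1-si under hypoxia and to 4 higher under normoxia. With a 1.5-fold limit, members called were 7 higher for hypoxia in scrambled cells, 7 lower for TET1-si under hypoxia, 1 higher and 4 lower under normoxia, and 1 higher and 7 lower for the difference, and list genes were 28 higher and 1 lower, 9 higher and 12 lower for the hypoxia responses of scrambled and TET1-si cells, 7 higher for TET1-si under hypoxia, 14 higher and 22 lower under normoxia, and 2 higher and 23 lower for the difference. With no minimum level, list genes were 1 lower for hypoxia in scrambled cells, 2 higher for TET1-si under hypoxia and 4 higher under normoxia. With a minimum of 5 FPKM, which tests fewer genes, they were 7 higher for hypoxia in scrambled cells, 0 higher for TET1-si under hypoxia, 1 higher and 8 lower under normoxia, and 7 lower for the difference. Scaling moved the median of all genes for TET1-si under normoxia from 0.15 to -0.004 with median-of-ratios, and for hypoxia in scrambled cells from 0.05 to 0.16 as TPM. The share of all genes called also depends on the setting. It is not set beside the counts of this paragraph, so nothing is read from them for the members or the lists.

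Of 250 values of single members under other pseudocounts and scalings, 243 stayed on their side of the 2-fold limit. RELB and TNFAIP3 for hypoxia in TET1-si cells came to -0.96 and -0.97 with a pseudocount of 1. Over all these settings TNFAIP3 ran from -1.086 to -0.942 there, so its call also depends on the scaling. TNFAIP3 for hypoxia in scrambled cells came to 1.08 as TPM. The sign of small changes turned for RELA under normoxia, from 0.06 to -0.11 with median-of-ratios, and for NFKB2 for hypoxia in TET1-si cells, from -0.07 to 0.07 as TPM. The LTB change for TET1-si under hypoxia ran from -5.84 to -4.23, and 7 reads in H-si limit it. For hypoxia in TET1-si cells LTB ran from -2.165 to -1.070, close to the limit at its weakest. Its difference of responses ran from -3.333 to -2.173.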
